A study of Mus musculus with 12 samples.

Results

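This account follows 10 genes of the CC chemokine system in 4T1 tumours of mice: the ligand genes Ccl2, Ccl3, Ccl4, Ccl5, Ccl7, Ccl8, Ccl17 and Ccl22 and the receptor genes Ccr2 and Ccr7. They were taken by name from the deposited count table, which held all 10 among 35434 genes, and all 10 passed the filter on low counts that left 15269 genes for testing. 4T1 is a mouse line of triple-negative breast cancer, and its cells were injected under the skin of female BALB/c mice aged 6 to 8 weeks. The study had 24 mice in 4 groups. Each group is represented by 3 libraries, and each library came from the tumour of a different mouse. MC mice lived at ambient altitude, about 1500 m, and received vehicle. MI mice lived at ambient altitude and received IOX2, an inhibitor of the oxygen-sensing enzyme PHD2, at 10 mg/kg. HC mice lived in a low-pressure chamber simulating 3500 m and received vehicle, and HI mice lived in the chamber and received IOX2. In all groups the housing began 3 days before inoculation, daily injections began 9 days after it and were given 10 times, and day 22 of the study was the day of collection. The groups in the chamber differ from the others in both altitude and chamber housing, and these cannot be told apart.

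CC chemokines are small secreted proteins whose first cysteines lie side by side, and they direct the movement of white blood cells through receptors on those cells. Ccl2, Ccl7 and Ccl8 attract monocytes, Ccl2 and Ccl7 mainly through Ccr2, the receptor that lets monocytes leave the bone marrow and enter tissue. Ccl3, Ccl4 and Ccl5 attract macrophages, T cells and natural killer cells, and Ccl3 and Ccl5 act on Ccr1 among other receptors. Ccl17 and Ccl22 are made largely by dendritic cells and share the receptor Ccr4, which is found on regulatory and helper T cells. Ccr7 is carried by mature dendritic cells and by naive T cells, and it guides them to lymph nodes towards Ccl19 and Ccl21.

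Of the 10 genes, 2 stood lower at simulated altitude by more than the others, Ccl22 and Ccr7, and neither passed the threshold. Averaged over vehicle and IOX2, the log2 change of Ccl22 was -1.17 (SE 0.27, adjusted p = 0.0774), and that of Ccr7 was -1.32 (SE 0.31, adjusted p = 0.0826). Adjusted p here and below comes from the quasi-likelihood test of edgeR with Benjamini-Hochberg adjustment over all 15269 genes, and a gene was called when it was under 0.05. Ccl3 and Ccl8 had positive log2 changes, and Ccl2 stood at nearly the same level in every group. None of the 10 genes was called by edgeR in any of 7 comparisons, in which 0% to 0.498% of all genes were called.

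The libraries held 31661685 (HC1) to 40019343 counts. One library stood apart in lymphocyte genes: in MI1 the summed level of 6 B cell markers was 669 CPM (read counts scaled to library size with TMM factors), against 2.37 to 18.4 in the other 11. Ccl19 stood at 5.93 CPM in MI1 and at no more than 0.0306 in the others, and Ccl21a stood at 59.0 CPM against 0.324 to 5.79. Values without MI1 are therefore given beside the results that it moved most. The 8 markers of 4T1 epithelium summed to 3740 to 4853 CPM in all libraries, and the 12 of monocytes and macrophages to 1654 to 2859 CPM, so both the tumour and the myeloid cells that carry many of these receptors were represented. Red cell markers were higher in groups with IOX2 or altitude: they summed to 19.8 to 21.1 CPM in MC, 87.5 to 123 in MI, 56.7 to 105 in HC and 166 to 318 in HI, and the part of blood in the results below was not tested. In bulk tissue, fewer cells of a type and less RNA per cell cannot be told apart.

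Levels of different genes were compared on the deposited FPKM (fragments scaled to gene length and library size), which corrects for gene length. Ccl8 was the most abundant of the 10, at 75.2 to 202 FPKM over the 12 libraries, above the whole range of Ccl5 (23.9 to 65.6). Next in order of their means came Ccl2 (21.4), Ccl7 (16.6) and Ccr2 (13.2 FPKM), with ranges that overlapped from each gene to the next. Ccl3 (mean 6.39 FPKM) and Ccl4 (5.87) were followed by Ccl22 (2.17), Ccr7 (1.67) and Ccl17 (0.922), again with overlapping neighbours. Of the wider family, the ligand gene Ccl6 (102 FPKM) was near Ccl8, and the receptor gene Ccr1 (25.9) stood above Ccr2. Ccr4, the receptor gene for Ccl17 and Ccl22, had a mean of 0.0425 FPKM.

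**Figure D1:**
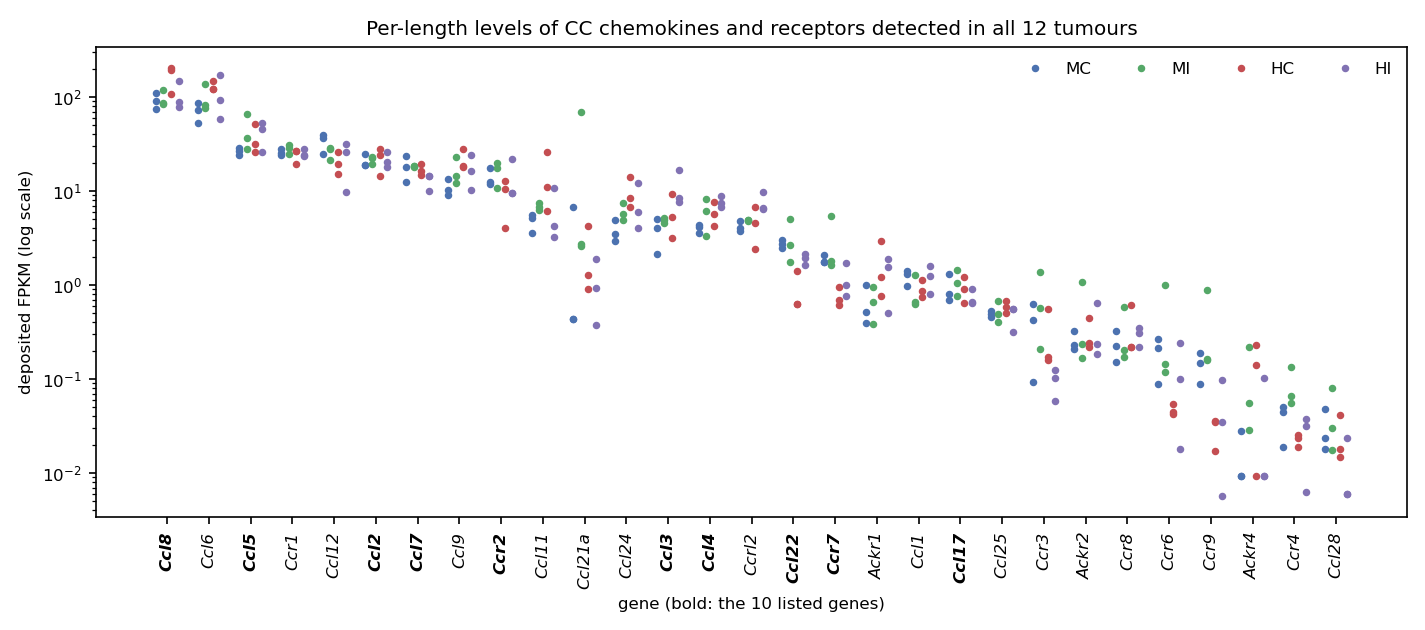
Deposited FPKM (log scale) of 29 CC chemokine and receptor genes, each with a value above 0 in all 12 libraries, ordered by mean, 1 point per tumour coloured by group and the 10 listed genes in bold. Ccl8 leads at 75.2 to 202 FPKM, and 1 MI point of Ccl21a, from MI1, stands far above its other libraries.

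Among the ligands of monocytes, Ccl2 had group means of 16.7 to 17.8 CPM. It stood at 19.7, 15.3 and 15.2 CPM in MC1 to MC3, at 17.8, 17.8 and 16.9 in MI, at 11.2, 22.6 and 19.6 in HC and at 14.8, 20.3 and 16.0 in HI. The groups overlapped throughout, and the lowest and the highest library were both HC tumours. The altitude average had a log2 change of 0.03 (SE 0.16, adjusted p = 0.949, 95% confidence interval -0.32 to 0.37), so a change of the size seen in Ccl22 lies outside the interval.

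Ccl7, whose gene lies next to Ccl2, had its lowest values in tumours with both altitude and IOX2. Its CPM were 18.6, 10.1 and 14.4 in MC, 14.2, 14.4 and 16.1 in MI, 12.8, 15.4 and 12.1 in HC, and 8.27, 11.3 and 11.4 in HI. Each HI tumour was below each MI and each HC tumour, while MC2 was below 2 of the HI tumours. The log2 change was -0.53 in HI against MI (SE 0.21, adjusted p = 0.283) and -0.38 in HI against HC (SE 0.21, adjusted p = 0.964). Averaged over treatment, the altitude change of Ccl7 was -0.31 (SE 0.15, adjusted p = 0.296).

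Ccl8, which in mice also draws cells through Ccr8, had its highest values in vehicle-treated tumours at altitude. In HC it stood at 97.1, 103 and 55.6 CPM, against 55.2, 46.6 and 38.8 in MC. Every HC tumour was above every MC tumour, HC3 (55.6) by a narrow margin over MC1 (55.2). The log2 change was 0.86 (SE 0.28, adjusted p = 0.295). With IOX2 the values were 60.1, 43.1 and 46.5 CPM in MI and 79.0, 44.0 and 39.3 in HI, groups that overlapped, with HI1 the highest.

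In chamber mice, IOX2 was thus accompanied by a lower mean of Ccl8, 54.1 ± 21.7 CPM in HI against 85.3 ± 25.9 in HC (SD, n = 3). The log2 change was -0.66 (SE 0.28, adjusted p = 0.964), and HI1 stood above HC3. Without HI1 the change was -1.03 (adjusted p = 0.583). The altitude by IOX2 interaction of Ccl8 was -0.75 on the log2 scale (SE 0.40, adjusted p = 0.607), so a difference between the altitude effects with and without IOX2 was not shown. The altitude average was 0.49 (SE 0.20, adjusted p = 0.242).

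Fat cell genes moved with Ccl8 in some libraries. The 7 fat cell markers, none of them at 0 in all libraries, summed to 606, 413 and 74.1 CPM in HC1 to HC3 and to 48.8 to 84.4 CPM in MC, so HC3 was within the MC range. HI2 had 339 CPM of fat cell markers with Ccl8 at 44.0 CPM. Over the 12 libraries the Pearson r of Ccl8 with the fat cell sum was 0.76, and over deviations from group means it was 0.68, as a description of points that share libraries. The part of fat tissue in the values of Ccl8 was not tested.

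Relative to Ccl2, the per-length level of Ccl8 was 4.02 to 4.80 times as high in MC, and 13.7, 7.19 and 4.47 times in HC1 to HC3. The ratio of Ccl8 to Ccl7 was 4.21 to 7.26 in MC and 7.22 to 11.9 in HC. These 3 ligands of overlapping receptors, all in 1 cluster on chromosome 11 with Ccl11, Ccl12 and Ccl1, thus did not keep fixed proportions across tumours.

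Ccr2, the monocyte receptor gene, varied more within groups than between them. It stood at 82.4, 58.3 and 56.7 CPM in MC, 81.3, 49.9 and 102 in MI, 58.9, 49.3 and 19.3 in HC, and 45.9, 44.4 and 102 in HI. HC3 was the lowest of the 12 libraries, and MI3 and HI3 were the highest. In HC against MC the log2 change was -0.63 (SE 0.42, adjusted p = 0.601). The altitude average was -0.46 (SE 0.30, adjusted p = 0.446, 95% confidence interval -1.11 to 0.19). In HC against MC the change was -0.28 without HC3 and -0.94 without HC1, and the altitude average was -0.28 without HC3 and -0.71 without HI3. The monocyte and macrophage marker sum was 1744 CPM in HC3, against 2446 and 2123 in HC1 and HC2. It was highest in MC3 (2859 CPM), where Ccr2 stood at 56.7 CPM, and was 2311 in MI3 and 2118 in HI3. Over the 12 libraries the Pearson r of Ccr2 was 0.58 with this sum and -0.79 with the 4T1 epithelial sum. Over deviations from group means these were 0.70 and -0.88. The part of monocyte or tumour cell content in Ccr2 was not tested.

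Among the inflammatory ligands Ccl3, Ccl4 and Ccl5, Ccl3 had its highest values in tumours with both altitude and IOX2. It stood at 1.66, 4.01 and 3.18 CPM in MC, 4.07, 3.76 and 3.91 in MI, 2.42, 7.35 and 4.31 in HC, and 13.7, 5.95 and 6.55 in HI. Every HI tumour was above every MI tumour, while HC overlapped with MC and with HI. The log2 change was 1.16 in HI against MI (SE 0.44, adjusted p = 0.276), 0.67 in HC against MC (SE 0.44, adjusted p = 0.59) and 0.89 in HI against HC (SE 0.43, adjusted p = 0.964). The HC against MC change was 0.19 without HC2, and the HI against HC change was 0.41 without HI1 and 1.37 without HC2.

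The altitude average of Ccl3 was 0.92 (SE 0.31, adjusted p = 0.172), a mean fold of 1.89. Library HI1, with 526 counts of Ccl3, was the highest. Without it the HI against MI change was 0.68 on the log2 scale. The neutrophil markers, 8 genes, summed to 1488 CPM in HI1 and to 837 to 959 CPM in HI2 and HI3. The Pearson r of Ccl3 with that sum was 0.54 over the 12 libraries and 0.76 over deviations from group means. Over the 12 libraries r was -0.72 with the monocyte and macrophage sum and 0.64 with the red cell sum. The part of neutrophils in Ccl3 was not tested.

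Ccl4 lies next to Ccl3 on chromosome 11 and is similar to it in sequence and receptor use. It stood at 2.34, 2.70 and 2.90 CPM in MC, 5.39, 3.88 and 2.37 in MI, 2.69, 5.10 and 3.79 in HC, and 6.06, 4.37 and 4.88 in HI. The 3 MC tumours were in the lower part of the range, and every HI tumour was above every MC tumour. The altitude average was 0.47 (SE 0.22, adjusted p = 0.292), and the IOX2 average was 0.48 (SE 0.22, adjusted p = 0.759). MI against MC gave 0.55 (SE 0.31, adjusted p = 0.492), and 0.26 without MI1.

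Ccl5, a product of T cells, natural killer cells and macrophages, was highest in MI1, HI1 and HC2. Its CPM were 12.5, 14.3 and 15.2 in MC, 34.4, 19.0 and 16.0 in MI, 13.5, 27.2 and 17.2 in HC, and 29.3, 13.5 and 23.997 in HI. Every MI tumour was above every MC tumour, MI3 (16.0) narrowly above MC3 (15.2), with a log2 change of 0.73 (SE 0.34, adjusted p = 0.492). Without MI1 the change was 0.34. The natural killer cell sum (7 markers) was 119 CPM in MI1 and 38.0 to 53.9 CPM in MC, and the T cell sum (10 markers in the table) was 135 CPM in MI1 and 48.4 to 59.5 CPM in MC. In HI1 and HC2 the natural killer cell sum was 82.1 and 84.5 CPM, and the T cell sum was 55.7 and 50.7 CPM. In HI2, with Ccl5 at 13.5 CPM, these sums were 97.1 and 95.2 CPM. The Pearson r of Ccl5 over 12 libraries was 0.70 with the natural killer cell sum and 0.42 with the T cell sum. Over deviations from group means these were 0.54 and 0.19. Other sums moved with Ccl5 as well: r over 12 libraries was 0.70 with the B cell sum and 0.62 with the neutrophil sum. Over deviations these were 0.73 and 0.58, with MI1 among the libraries. The part of any of these cells in Ccl5 was not tested. The altitude average of Ccl5 was 0.20 (SE 0.24, adjusted p = 0.691), and 0.40 (adjusted p = 0.365) without MI1.

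**Figure D2:**
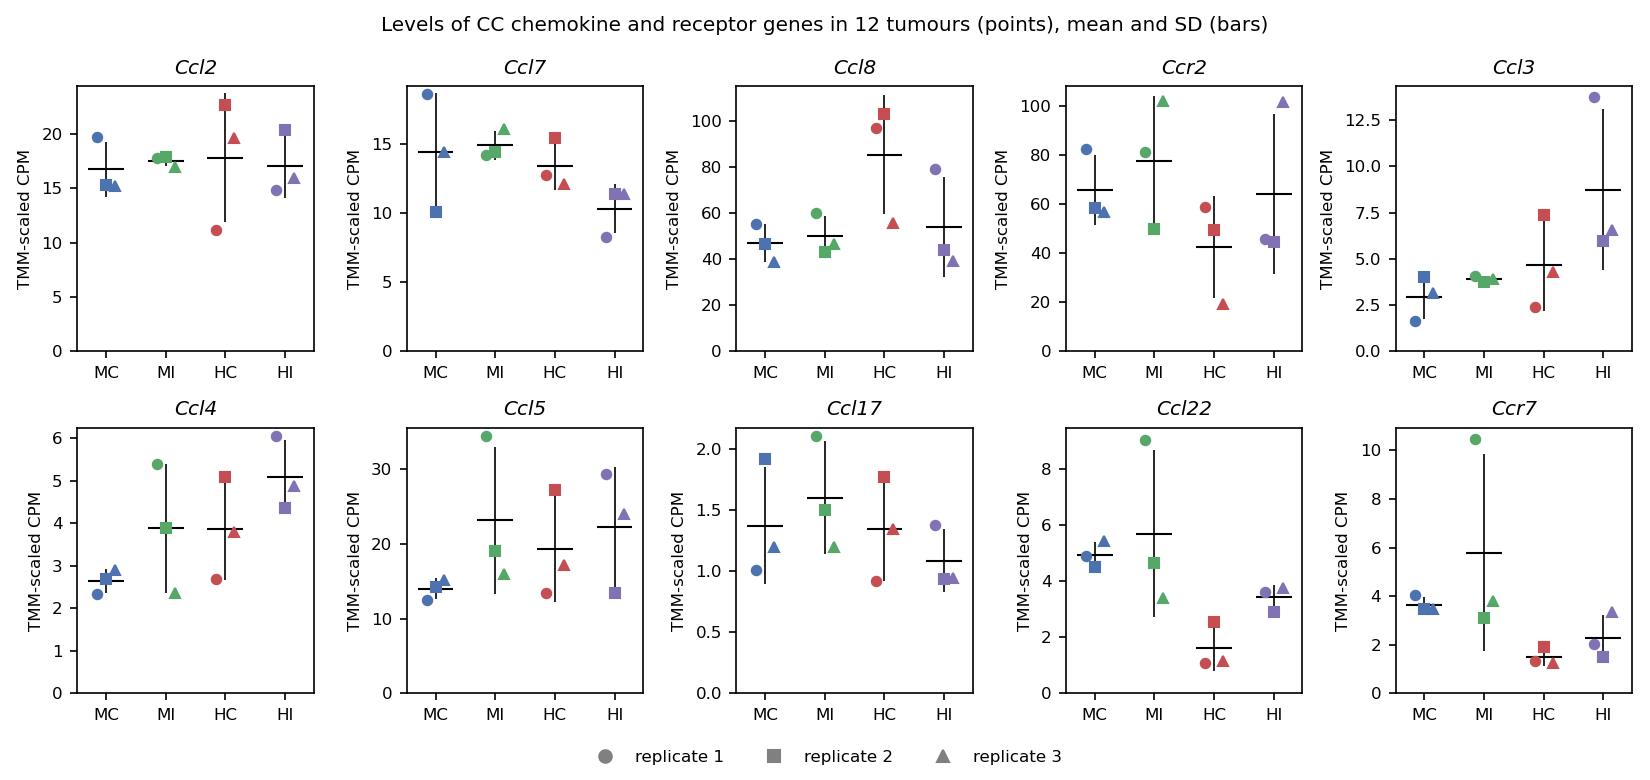
TMM-scaled CPM of the 10 genes in each of the 12 tumours, by group (MC, MI, HC, HI), with 1 point per tumour, symbols for the replicate number and bars for the group mean and SD (n = 3). Ccl22 and Ccr7 lie lowest in HC, Ccl8 highest in HC, and MI1 is the top point of Ccl5, Ccl17, Ccl22 and Ccr7.

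Ccl22, a dendritic cell ligand for regulatory T cells, had the smallest p of the 10 genes in HC against MC. It stood at 4.89, 4.52 and 5.45 CPM in MC, 9.06, 4.64 and 3.42 in MI, 1.101, 2.56 and 1.17 in HC, and 3.60, 2.91 and 3.76 in HI. Every HC tumour was below every tumour of the other 3 groups, and HI overlapped with MI only through MI3. In HC against MC the log2 change was -1.61 (SE 0.39, adjusted p = 0.217), a level 3.06 times lower. On log2(FPKM + 1), a scale that understates the change of low genes, it was -1.01 (limma, adjusted p = 0.294). The lowest library, HC1, held 36 counts, with an exact Poisson interval of 25.2 to 49.8 that covers counting error only.

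With IOX2 the altitude change of Ccl22 was -0.74 (SE 0.38, adjusted p = 0.364) in HI against MI, and -0.25 without MI1. In chamber mice, HI was above HC in every tumour, with a log2 change of 1.08 (SE 0.39, adjusted p = 0.964). The interaction of altitude and IOX2 was 0.88 (SE 0.54, adjusted p = 0.64), so the altitude effects with and without IOX2 were not shown to differ. At ambient altitude, IOX2 gave a change of 0.21 (SE 0.37, adjusted p = 0.818), which became -0.28 without MI1. The IOX2 average was 0.64 (SE 0.27, adjusted p = 0.759). Without MI1 the IOX2 average of Ccl22 was 0.40 and its interaction 1.35 (adjusted p = 0.74 and 0.777), and without HC2 the interaction was 1.39 (adjusted p = 0.748).

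DESeq2 called Ccl22 in HC against MC (adjusted p = 0.00788) and in the altitude average (adjusted p = 0.00175). In the altitude average, edgeR called it without a filter on low counts (adjusted p = 0.0467) and without HC2 (adjusted p = 0.0497). Over all 20 alternatives for that average, its adjusted p ran from 0.00175 to 0.181 and its log2 change from -1.43 to -0.73.

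Ccl17, which shares Ccr4 with Ccl22 and lies near it on chromosome 8 with Cx3cl1 between them, had values of 0.917 to 2.11 CPM. It stood at 1.01, 1.92 and 1.20 CPM in MC, 2.11, 1.505 and 1.20 in MI, 0.917, 1.77 and 1.35 in HC, and 1.38, 0.937 and 0.946 in HI. The groups overlapped in all comparisons, and counts of 30 to 83 per library limit the precision. The altitude average was -0.29 (SE 0.26, adjusted p = 0.576, 95% confidence interval -0.85 to 0.27), and -0.17 without MI1 or -0.13 without MC2.

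On the per-length scale Ccl22 was 1.91 to 3.93 times as high as Ccl17 in MC, 2.32 to 3.48 times in MI and 2.11 to 3.22 times in HI, but 0.702 to 1.17 times in HC. The ratio in HC was thus below the ratio in every other tumour, as a description of 2 genes in the same libraries. The bases upstream of these neighbouring genes are shown because their levels parted in HC. They are from RefSeq (GRCm38.p6, plus strand) and are printed up to the first transcribed base, at chr8:94745434-94745589 for Ccl22 and chr8:94810203-94810452 for Ccl17. Capitals mark matches to the motifs named below.
Ccl22: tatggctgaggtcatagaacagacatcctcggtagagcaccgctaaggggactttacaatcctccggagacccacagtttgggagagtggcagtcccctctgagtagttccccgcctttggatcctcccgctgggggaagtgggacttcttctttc
Ccl17: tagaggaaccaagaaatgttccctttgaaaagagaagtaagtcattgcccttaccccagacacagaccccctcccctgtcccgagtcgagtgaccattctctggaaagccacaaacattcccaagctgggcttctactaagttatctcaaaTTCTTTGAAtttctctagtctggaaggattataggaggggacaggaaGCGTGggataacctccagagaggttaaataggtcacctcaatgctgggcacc

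The table of promoters held 5 of the 10 genes (Ccl3, Ccl8, Ccl17, Ccl22 and Ccr2), and all 250 bases before each RefSeq start were searched on both strands. For Ccl22 the first 156 of them are printed and for Ccr2 the first 17 lie outside transcripts, since a GENCODE transcript begins there, while the search covered the rest too. Ccl17 had 1 match to the STAT motif TTCNNNGAA, with 90 bases between it and the start. It had 1 match to the hypoxia response core (ACGTG or GCGTG), with 47 bases between. Only this spacing of TTC and GAA was searched, so STAT sites of other spacings are neither counted nor marked. The other 4 had no match to these, to the kappa-B motif, to the AP-1 motif TGANTCA or to the ISRE core of interferon-response genes. Of all 32851 promoter windows, 7.02% held the STAT motif, 38.6% the hypoxia core, 7.25% kappa-B, 6.75% AP-1 and 2.98% the ISRE core. The motifs do not overlap in the Ccl17 window, and a match is a string of letters, not a measured site.

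Ccr7 ran with Ccl22 over the 12 libraries (Pearson r = 0.89), and less closely over deviations from group means without MI1 (0.54). It stood at 4.03, 3.46 and 3.46 CPM in MC, 10.45, 3.11 and 3.82 in MI, 1.31, 1.90 and 1.25 in HC, and 2.04, 1.48 and 3.34 in HI. Every HC tumour was below every MC tumour, and HI overlapped with MI only through HI3 (3.34) against MI2 (3.11). The log2 change was -1.29 in HC against MC (SE 0.45, adjusted p = 0.304) and -1.34 in HI against MI (SE 0.44, adjusted p = 0.244). On log2(FPKM + 1) the HC against MC change was -0.70 (limma, adjusted p = 0.444). Without MI1 the HI against MI change was -0.62 and the altitude average -0.95 (adjusted p = 0.117).

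At ambient altitude IOX2 gave a Ccr7 change of 0.67 (SE 0.43, adjusted p = 0.527) with MI1 and -0.06 without it. DESeq2 called Ccr7 in the altitude average (adjusted p = 0.00272), and edgeR did so without MI2 (adjusted p = 0.0421) or without HI3 (adjusted p = 0.0438). Over the 20 alternatives for that average its adjusted p ran from 0.00272 to 0.188 and its log2 change from -1.51 to -0.73. The lowest count was 43, in HC1, with an exact Poisson interval of 31.1 to 57.9.

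Dendritic cell and mast cell markers had negative log2 changes at altitude, as this pair of genes did. All 7 mast cell markers were negative in the altitude average (median -0.85). Of these, 6 had an unadjusted p under 0.05, beside 17.3% of all genes, and 1 was called by edgeR, beside 0.498%. Without MI1 all 7 were negative, 6 had an unadjusted p under 0.05, beside 16.8%, and 0 were called. The 9 dendritic cell markers, none at 0 in all libraries, summed to 89.4 to 121 CPM in MC, 92.0 to 105 in MI, 61.9 to 91.8 in HC and 61.3 to 96.4 in HI. All 9 had a negative log2 change in the altitude average (median -1.05, against -0.02 over all genes), with 6 of 9 at an unadjusted p under 0.05, beside 17.3% of all genes, and 0 called by edgeR, beside 0.498%. Without MI1 all 9 were negative, and 3 had an unadjusted p under 0.05, beside 16.8%. Clec9a, a receptor gene of cross-presenting dendritic cells, had -2.06 (SE 0.46, adjusted p = 0.0752), and Itgae, an integrin gene of the same cells and of tissue T cells, had -1.05 (SE 0.28, adjusted p = 0.11).

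Of 8 markers of mature dendritic cells, 6 were tested and all 6 were negative (median -0.23, against -0.02 over all genes). At an unadjusted p under 0.05 stood 3, beside 17.3% of all genes, and 0 were called, beside 0.498%. Without MI1 all 6 were negative, and 2 had an unadjusted p under 0.05, beside 16.8%. They included the activation marker gene Cd83 (-0.82, SE 0.24, adjusted p = 0.13) and the calcium-channel subunit gene Cacnb3 (-0.25, SE 0.08, adjusted p = 0.154). The Pearson r over 12 libraries was 0.89 between Ccl22 and Ccr7, 0.76 between Ccl22 and the dendritic cell sum, and 0.77 between Ccr7 and that sum. Over deviations from group means these were 0.78, 0.65 and 0.60. Other sums moved with the pair as well: Ccr7 had -0.85 with the 4T1 epithelial sum over 12 libraries, and over deviations the B cell sum gave 0.87 with Ccr7 and 0.73 with Ccl22. The sum of mature dendritic cell markers gave 0.74 with Ccl22 and 0.57 with Ccr7, and over deviations 0.64 and 0.22. Without MI1 (11 libraries) r was 0.86 between Ccl22 and Ccr7, and with the dendritic cell sum it was 0.75 for Ccl22 and 0.85 for Ccr7. In those libraries the B cell sum gave -0.22 with Ccl22 and -0.03 with Ccr7, and the mast cell sum gave 0.67 and 0.86. Over deviations without MI1, r was 0.54 between Ccl22 and Ccr7. The dendritic cell sum then gave 0.72 with Ccl22 and 0.75 with Ccr7, the mature dendritic cell sum 0.50 and -0.29, and the mast cell sum 0.03 and 0.53. The values furthest from 0 were -0.90 for Ccl22 with the endothelial sum and -0.83 for Ccr7 with the 4T1 epithelial sum. The points share libraries, MI1 among them, and the part of any of these cell types in Ccl22 and Ccr7 was not tested.

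**Figure D3:**
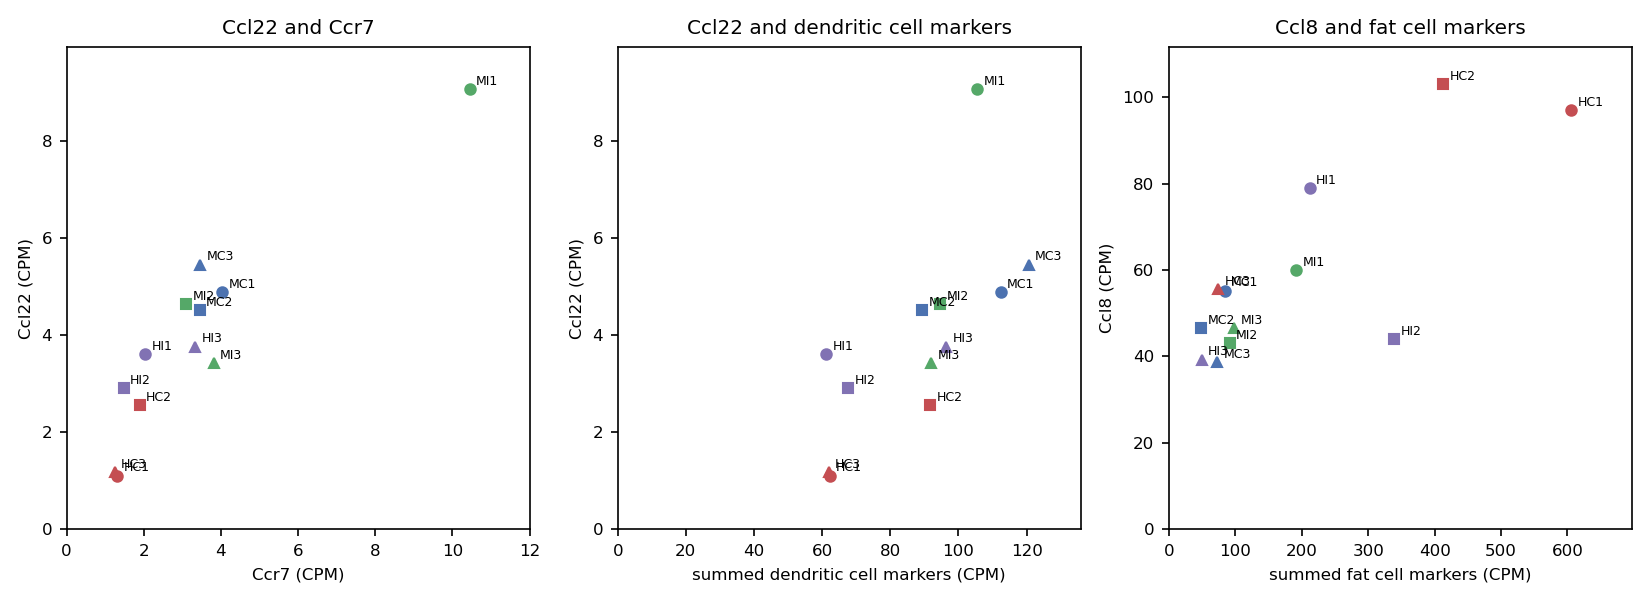
Each point is 1 tumour, coloured by group and named. Left and centre, Ccl22 (CPM) against Ccr7 and against the sum of 9 dendritic cell markers, with MI1 far above the rest and HC1 and HC3 lowest. Right, Ccl8 against the sum of 7 fat cell markers, with HC1 and HC2 high in both and HI2 high in fat cell markers alone.

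Across the 45 pairs of the 10 genes the patterns fell into few close matches. Besides Ccl22 with Ccr7, r was 0.84 for Ccl4 with Ccl5, 0.81 for Ccl3 with Ccl4 and 0.67 for Ccr2 with Ccr7. Ccl2, although a ligand of Ccr2, had an r of -0.22 with it and of 0.37 with its neighbour Ccl7. Ccl3 with Ccl7 gave -0.69. Over deviations from group means, Ccl4 and Ccl22 reached 0.88 although their r over all libraries was 0.13, and their altitude changes point in opposite directions. All are descriptions over 12 libraries.

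**Figure D4:**
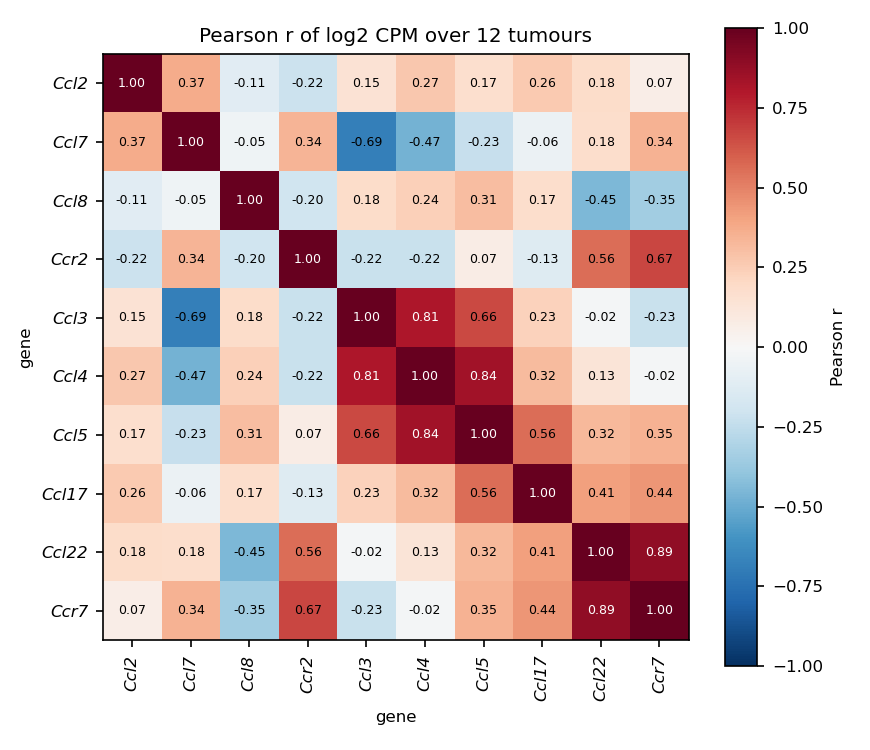
Pearson r of log2 CPM over the 12 tumours for each pair of the 10 genes, with red for positive and blue for negative values. Ccl22 with Ccr7 (0.89), Ccl4 with Ccl5 (0.84) and Ccl3 with Ccl4 (0.81) are the highest.

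By the same measure, the genes most like each member were sought among 10832 other genes with at least 5 CPM on average. For Ccl3 they were the neutrophil chemokine gene Cxcl2 (r = 0.93), the metabolite receptor gene Hcar2 (0.92) and Cxcl3 (0.92), and for Ccl4 Cxcl3 (0.91), Mxd1 (0.91) and the kinase gene Pim1 (0.90). For Ccl22 they were Cacnb3 (0.92), the kinesin gene Kif21b (0.92) and Rhoh (0.91), and for Ccr7 Txndc16 (0.93), Plxnc1 (0.91) and Rasgrp3 (0.90). For Ccr2 they were Tmem50b (0.92), its neighbour Ccr1 (0.90) and Sord (0.88). For Ccl8 they were Exosc8 (0.96), Il1rl2 (0.95) and Ggct (0.95), and for Ccl5 Cenpm (0.92), the cytokine-signalling brake gene Socs3 (0.88) and Ubd (0.87). The closest genes to Ccl17 were S1pr3 (0.94), Wnt10a (0.89) and Arfgap3 (0.86), and to Ccl7 Prune2 (0.88), Eri2 (0.86) and Zbtb8os (0.81). Ccl2 had no match above 0.76, with Znhit3 (0.76) and the granzyme genes Gzmg (0.73) and Gzmc (0.70) in front. Each value is over 12 libraries, and the best of many genes is high by selection.

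Counted over the list, altitude with vehicle (HC against MC) gave 0 of 10 genes called by edgeR, where 0% of all genes were called. At an unadjusted p under 0.05 stood 3 of 10 (Ccl8 higher, Ccl22 and Ccr7 lower), beside 12% of all genes, and the groups did not overlap for the same 3, beside 21.7%. The median log2 change was 0.03, against -0.01 over all genes. DESeq2 called 1 member and limma-voom 0. Same-numbered libraries of HC and MC deviated together, and with the replicate number as a block 13 of all genes and 0 of the 10 were called.

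Altitude with IOX2 (HI against MI) also gave 0 of 10 called by edgeR, beside 0% of all genes. An unadjusted p under 0.05 was reached by 3 of 10 (Ccl3 higher, Ccl7 and Ccr7 lower), beside 15.2%, and 2 of 10 did not overlap (Ccl3 and Ccl7), beside 14.6%. The median was -0.17, against -0.01. DESeq2 and limma-voom called 0 of the 10. In the altitude average 0 of 10 were called, beside 0.498% of all genes, and 4 of 10 had an unadjusted p under 0.05 (Ccl3 and Ccl8 higher, Ccl22 and Ccr7 lower), beside 17.3%. No member separated all 6 altitude from all 6 ambient tumours, beside 1.95% of all genes. DESeq2 called 2 members there and limma-voom 0.

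IOX2 at ambient altitude (MI against MC) gave 0 of 10 called by edgeR, beside 0.0262% of all genes, and 0 of 10 at an unadjusted p under 0.05, beside 9.39%. All 10 log2 changes were positive (median 0.23, against 0.01 over all genes), and without MI1 those of Ccl8, Ccl17, Ccl22 and Ccr7 were negative. Only Ccl5 of the 10 did not overlap between the groups, beside 11.1%. IOX2 at simulated altitude (HI against HC) gave 0 of 10 called, beside 0% of all genes, with 2 of 10 at an unadjusted p under 0.05 (Ccl22 higher, Ccl8 lower), beside 4.85%. Without overlap were Ccl22 and Ccl7, 2 of 10, beside 11.4%.

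The IOX2 average gave 0 of 10 called, beside 0.0393% of all genes, and 2 of 10 at an unadjusted p under 0.05 (Ccl22 and Ccl4, both higher), beside 5.12%. No member separated all 6 IOX2 from all 6 vehicle tumours, beside 0.177% of all genes. The interaction gave 0 of 10 called, beside 0% of all genes, and 0 of 10 at an unadjusted p under 0.05, beside 8.21%. DESeq2 and limma-voom called 0 of the 10 in the 3 IOX2 comparisons and in the interaction. The comparisons against MC share its 3 libraries, as do other comparisons that have a group in common.

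**Figure D5:**
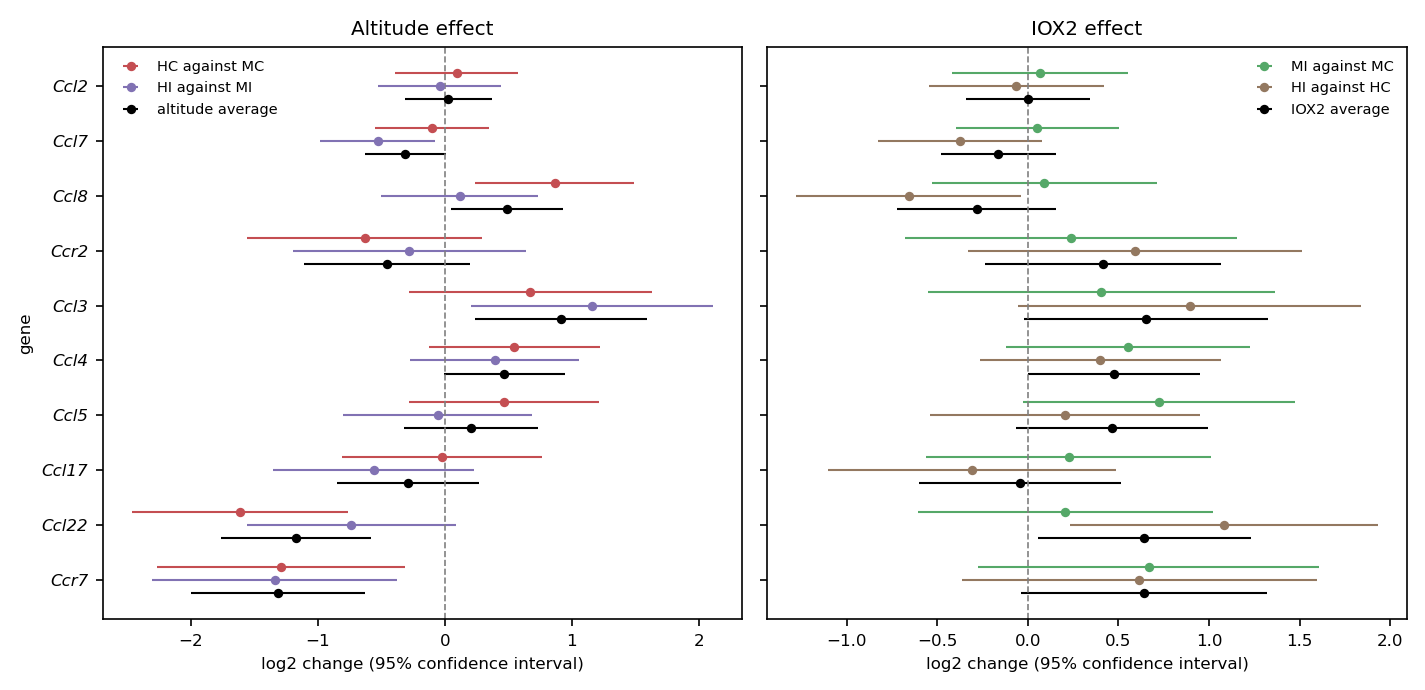
Log2 changes of the 10 genes with 95% confidence intervals from the edgeR fit of all 12 tumours, for altitude (left: HC against MC, HI against MI and their average) and for IOX2 (right: MI against MC, HI against HC and their average). In the altitude average the intervals of Ccl22 (-1.17) and Ccr7 (-1.32) lie below 0 and those of Ccl3 (0.92) and Ccl8 (0.49) above it, before adjustment for all genes tested.

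The rest of the CC family was described from 12 further ligand genes and 12 further receptor genes. Of the ligands 8 were tested, and 0 were called by edgeR in any of the 7 comparisons, beside 0% to 0.498% of all genes. In HC against MC 4 of the 8 stood above MC in every tumour, beside 10.3% of all genes. The median log2 change of the 8 was 0.58. With IOX2 (HI against MI) 0 of the 8 were higher and 1 was lower without overlap, beside 14.6% of all genes in either direction. The median there was -0.07. Ccl24, an eosinophil attractant, had 1.37 (SE 0.40, adjusted p = 0.249), and Ccl9, a myeloid cell attractant of the cluster that also holds Ccl3, Ccl4, Ccl5 and Ccl6, had 0.98 (SE 0.32, adjusted p = 0.284). In the altitude average Ccl24 had 0.83 (SE 0.28, adjusted p = 0.171).

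Of the receptors 10 were tested and 0 were called in any comparison, beside 0% to 0.498% of all genes. Ccr9, a gut-homing receptor gene, had -2.69 in the altitude average (SE 0.62, adjusted p = 0.0774), with 0.0247 to 3.84 CPM per library and the highest value in MI1. The lowest value is under the level that 3 counts would give, 0.0728 to 0.0917 CPM. Without MI1 the change of Ccr9 was -2.05 (adjusted p = 0.124). Ccrl2, a receptor-like gene that presents chemerin, was highest in HI1 at 22.8 CPM and had an IOX2 average of 0.49 (SE 0.22, adjusted p = 0.759).

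Chemokine genes outside the CC family that guide lymphocytes had 11 of 13 members tested. In any comparison 0 were called, beside 0% to 0.498% of all genes. Cxcr3, a receptor gene of effector T cells, had 0.75 in the altitude average (SE 0.19, adjusted p = 0.0976), and Xcl1, which attracts cross-presenting dendritic cells, had -1.08 (SE 0.41, adjusted p = 0.215). Cxcr6, a receptor gene of tissue T cells, was higher with IOX2 in every tumour, at 5.56 to 6.34 CPM without it and 6.71 to 10.1 with it, an IOX2 average of 0.59 (SE 0.12, adjusted p = 0.647). Cxcl9, an interferon-induced ligand of Cxcr3, had an IOX2 average of 0.67 (SE 0.22, adjusted p = 0.759).

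Signalling genes that are known to drive these ligands were counted in the same fit. Of 20 NF-kB and TNF pathway genes, 0 were called in the altitude average, beside 0.498% of all genes. At an unadjusted p under 0.05 there were 7 higher and 1 lower (median 0.12), 8 of 20 beside 17.3% of all genes. Il1a, an inflammatory cytokine gene, had 1.30 (SE 0.29, adjusted p = 0.0752), and Nfkbia, a feedback inhibitor of NF-kB, had 0.61 (SE 0.14, adjusted p = 0.0769). Of 12 interferon gamma pathway genes 0 were called in the IOX2 average, beside 0.0393% of all genes. Without MI1, 2 had an unadjusted p under 0.05 there, beside 5.05% of all genes. With all libraries 4 of 12 did, all higher (median 0.26), beside 5.12%. Among them was Ifng (0.92, SE 0.19, adjusted p = 0.759), which did not overlap between IOX2 and vehicle, beside 0.177% of all genes.

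The counts of genes called in the altitude average that follow stand beside 0.498% of all genes. Of 9 tested genes of the IL-4 and STAT6 pathway, which induces Ccl17 and Ccl22 in myeloid cells, 0 were called. In that average Chil3, a myeloid lectin gene, had 4.32 (SE 0.95, adjusted p = 0.0702) and Mgl2, a lectin gene of dendritic cells and macrophages, had -1.11 (SE 0.40, adjusted p = 0.193). Of 6 monocyte growth factor genes 0 were called, and Csf1r, the receptor gene that sustains macrophages, had -0.22 (SE 0.09, adjusted p = 0.269). Among monocyte and macrophage markers 10 of 12 had a negative altitude average (median -0.29, against -0.02 over all genes), with 0 called. At an unadjusted p under 0.05 stood 7 lower and 1 higher, beside 17.3% of all genes. Without MI1 these were 4 lower and 1 higher, beside 16.8%. All 8 neutrophil markers were positive (median 0.71), with 0 called and 4 at an unadjusted p under 0.05. Their sums overlapped between groups, at 721 to 1286 CPM in MC, 1003.5 to 1434.5 in MI, 970 to 1578 in HC and 837 to 1488 in HI.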

How the data were processed

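Both tables cover the same genes: the authors deposited raw whole-number counts per gene, and they deposited FPKM values beside them. R 3.5.1, HTSeq 0.11.2, HISAT2 2.1.0, DESeq2 1.22.2, fastp 0.20.1 and build GRCm39 are listed, without roles, per the submitters' processing notes. Which annotation and strand setting were used is not given in the sources used here. Each FPKM value above 0 implied a gene length that was whole within 0.01 base (100% of values).

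Tests on the counts used edgeR 4.0.16 under R 4.3.3, with TMM scaling, filterByExpr, and quasi-likelihood estimates from 12 libraries and 4 group means, for 7 contrasts. Alternatives were DESeq2 1.42.0, its size factors, other filters, voom and FPKM fits of limma 3.58.1, fits of 2 groups, a replicate block, and leaving out each library. The procedure was tested on simulated data. The 10 genes and the lists were chosen with earlier results of these data known. Named by rule are the members, the 2 genes of smallest p per list, other CC genes and 3 look-alikes per member. The main fit did not use the replicate numbers. The replicate block used them for all 12 libraries, and same-numbered libraries of HC and MC deviated together (r = 0.278, 0.153 and 0.209). RefSeq tables of build GRCm38.p6 gave promoters and gene order. A count of 0 allows up to 3 counts, 0.0728 to 0.0917 CPM. Results for 2 genes of these lists are not reported here.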

Additional observations from a re-analysis of the deposited data

How the results depend on the processing

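The count of genes called depended on the test more than the members' log2 changes did. DESeq2 called 314 genes in HC against MC, 381 in HI against MI, 20 in MI against MC, 19 in HI against HC, 866 in the altitude average, 11 in the IOX2 average and 29 in the interaction, where edgeR called 0, 0, 4, 0, 76, 6 and 0. Of the members, DESeq2 called 1 in HC against MC (Ccl22) and 2 in the altitude average (Ccl22 and Ccr7). Without a filter, edgeR called 2 genes in HC against MC, 16 in HI against MI and 166 in the altitude average, with 1 member (Ccl22) in the last. HI against MI gave 1 gene with DESeq2 size factors and 2 with at least 1 CPM in 3 libraries. With only the 2 groups compared, HC against MC gave 63 genes and MI against MC 2. In MI against MC limma-voom called 0, and in the altitude average it called 20, while limma on log2(FPKM + 1) called 14.

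With the replicate block, 13 genes were called in HC against MC, 3 in HI against HC and 155 in the altitude average, and no member was called in any comparison. In the other comparisons of 2 groups, the r of deviations between same-numbered libraries ran from -0.104 to 0.313.

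Leaving out each library in turn gave 0 to 40 genes in HC against MC (40 without HI1), 0 to 520 in HI against MI (520 without MI2), 0 to 6 in MI against MC, 2 to 339 in the altitude average (339 without HI3) and 0 to 2 in the interaction (2 without MI2). In the altitude average 0 to 1 members were called, Ccr7 without MI2 or HI3 and Ccl22 without HC2. The log2 change then ran from -0.28 to 0.47 for Ccl22 and from -0.0596 to 0.97 for Ccr7 in MI against MC, both negative only without MI1. For Ccl2 in the altitude average it ran from -0.0787 to 0.15, on either side of 0. The cause of these shifts was not tested. With 3 tumours per group, and 30 to 83 counts of Ccl17 per library, small differences were not detectable.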
